A study of Mus musculus with 15 samples.

Results

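The genes described here take up, bind and activate long-chain fatty acids: Cd36, the binding proteins Fabp1, Fabp2 and Fabp4, the transport proteins Slc27a1, Slc27a2 and Slc27a4, and the acyl-CoA synthetases Acsl1, Acsl3 and Acsl5. They were chosen by name, as the rows of the deposited tables that carry these symbols, and make up 10 of the 35275 genes listed. Liver mRNA was sequenced from C57BL/6 mice in 3 groups of 5 libraries each: mice fed ad libitum (AL), mice under intermittent fasting of 16 h (IF16), and mice under every-other-day fasting of 24 h (EOD). All groups were the same strain, 3 months old at the start and 6 months old after 3 months on the regimen, and carried no stated genetic change. The study asked how the 2 fasting regimens alter gene expression in the liver. Neither the hour of killing nor the time since the last meal is given in the labels.

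A fatty acid that reaches the liver cell crosses the plasma membrane with the help of proteins such as CD36 and the fatty acid transport proteins of the SLC27A family, and is carried in the cytosol by fatty acid binding proteins. It must be joined to coenzyme A by an acyl-CoA synthetase before it can be oxidised or built into triglyceride, and several SLC27A proteins are themselves such synthetases. In fasting, fatty acids released from adipose tissue are taken up by the liver, and the nuclear receptor PPARA, acting with RXR, switches on many genes of their use.

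PPARA and RXR bind DNA together at a pair of AGGTCA half-sites in the same direction with 1 base between them. RefSeq promoter windows on GRCm38.p6, running from 250 bases before to 50 bases after a transcript's start, were found for 9 of the 10 genes (12 windows; Fabp4 has no entry), and both strands were searched for this pair with at most 2 mismatches in its 12 specified bases. A match was found in 2 of the 12 windows, and in 3.86% of all 32851 windows of this length. The windows of Fabp1 and Cd36 are shown because they hold the matches, printed in capitals, and those of Slc27a2 and Acsl1 because these genes were the most abundant of those higher under EOD and hold none.
Fabp1, chr6:71199629-71199928, plus strand: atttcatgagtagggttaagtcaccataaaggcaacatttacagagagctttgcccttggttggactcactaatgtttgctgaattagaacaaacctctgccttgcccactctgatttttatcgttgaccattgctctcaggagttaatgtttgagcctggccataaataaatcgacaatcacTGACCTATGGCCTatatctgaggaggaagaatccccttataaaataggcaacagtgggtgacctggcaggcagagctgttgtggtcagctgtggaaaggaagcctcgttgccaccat
Cd36, chr5:17835847-17836146, minus strand: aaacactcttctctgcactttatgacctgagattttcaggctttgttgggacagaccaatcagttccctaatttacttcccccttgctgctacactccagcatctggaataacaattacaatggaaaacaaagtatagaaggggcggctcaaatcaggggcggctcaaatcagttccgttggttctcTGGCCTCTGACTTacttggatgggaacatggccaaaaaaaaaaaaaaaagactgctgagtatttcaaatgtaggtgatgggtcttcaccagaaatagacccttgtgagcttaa
Slc27a2, chr2:126552774-126553073, plus strand: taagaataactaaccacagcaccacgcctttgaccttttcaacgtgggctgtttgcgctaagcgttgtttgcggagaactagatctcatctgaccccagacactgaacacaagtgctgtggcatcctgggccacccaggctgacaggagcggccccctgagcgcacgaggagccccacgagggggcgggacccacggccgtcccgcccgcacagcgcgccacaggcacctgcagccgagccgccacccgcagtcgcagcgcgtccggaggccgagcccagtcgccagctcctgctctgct
Acsl1, chr8:46470787-46471086, plus strand: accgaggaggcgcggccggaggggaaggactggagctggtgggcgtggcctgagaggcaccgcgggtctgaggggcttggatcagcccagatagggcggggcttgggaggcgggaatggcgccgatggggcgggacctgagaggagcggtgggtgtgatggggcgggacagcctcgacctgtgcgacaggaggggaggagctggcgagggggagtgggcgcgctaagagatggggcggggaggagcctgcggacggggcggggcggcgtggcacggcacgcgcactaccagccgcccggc
Acsl1, second start, chr8:46490716-46491015, plus strand: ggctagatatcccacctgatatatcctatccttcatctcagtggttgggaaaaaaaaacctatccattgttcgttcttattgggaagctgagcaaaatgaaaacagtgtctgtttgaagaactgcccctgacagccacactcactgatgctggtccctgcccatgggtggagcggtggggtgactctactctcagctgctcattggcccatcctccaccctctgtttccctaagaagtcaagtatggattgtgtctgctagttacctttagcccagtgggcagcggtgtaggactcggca
The Fabp1 match had 1 mismatch and lay 67 to 55 bases before the start, on the opposite strand. The Cd36 match had 2 mismatches and lay 63 to 51 bases before the start, also on the opposite strand. At most 1 mismatch, as at Fabp1, occurred in 0.554% of all windows. A match describes the letters only, and the absence of one says nothing about binding elsewhere. The start of Slc27a2 in RefSeq lies within the gene of the deposited table, which begins at 126552407, and that of Cd36 also lies inside the deposited gene (chromosome 5, 17781690 to 17888959, minus strand).

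Library totals ranged from 28129883 to 38147534 counts. AL replicates 4 and 5 stood apart from the other libraries: the summed level of 8 acute phase genes was 18353 and 30631 CPM (counts relative to library size, with TMM factors) in them, and 3549 to 5225 CPM in the other 13. Where a call given below for a named gene or share was gained or lost without these 2 libraries, the value without them stands beside it. The share of counts from mitochondrially encoded genes averaged 11.5% in AL, 10.4% in IF16 and 6.89% in EOD (SD 2.16, 1.11 and 1.87, n = 5 each), and its part in the results was not tested. The 6 hepatocyte markers summed to 80717 CPM or more in every library. In bulk liver, fewer cells of a type and less RNA per cell cannot be told apart. Nothing in the labels ties a library to a mouse of its own, so p-values measure the spread between libraries, which may be technical.

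All 10 genes passed the filter on low counts. Between EOD and AL, 3 of the 10 rose (Slc27a1, Slc27a2 and Acsl1) and 3 fell (Fabp1, Acsl3 and Acsl5), while 17.6% of the 13837 genes tested were called higher and 17.6% lower. Between IF16 and AL, 1 rose (Slc27a2) and 0 fell by edgeR, against a background of 1.4% called higher and 2.1% lower; at an unadjusted p under 0.05, 3 were higher and 0 lower, and DESeq2 and limma also called 0 lower. Between EOD and IF16, 2 rose (Slc27a1 and Acsl1) and 2 fell (Fabp1 and Acsl3), against 7.96% and 8.15% of all genes. The median log2 fold change of the 10 genes was -0.17, 0.13 and 0.16 in IF16 against AL, EOD against AL and EOD against IF16, beside 0, -0.01 and 0 over all genes tested. The 3 comparisons share libraries and are not independent of each other. The single IF16 call was lost, and Cd36 became a call in the other direction, when AL replicates 4 and 5 were left out, as given below for each gene.

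**Figure D1:**
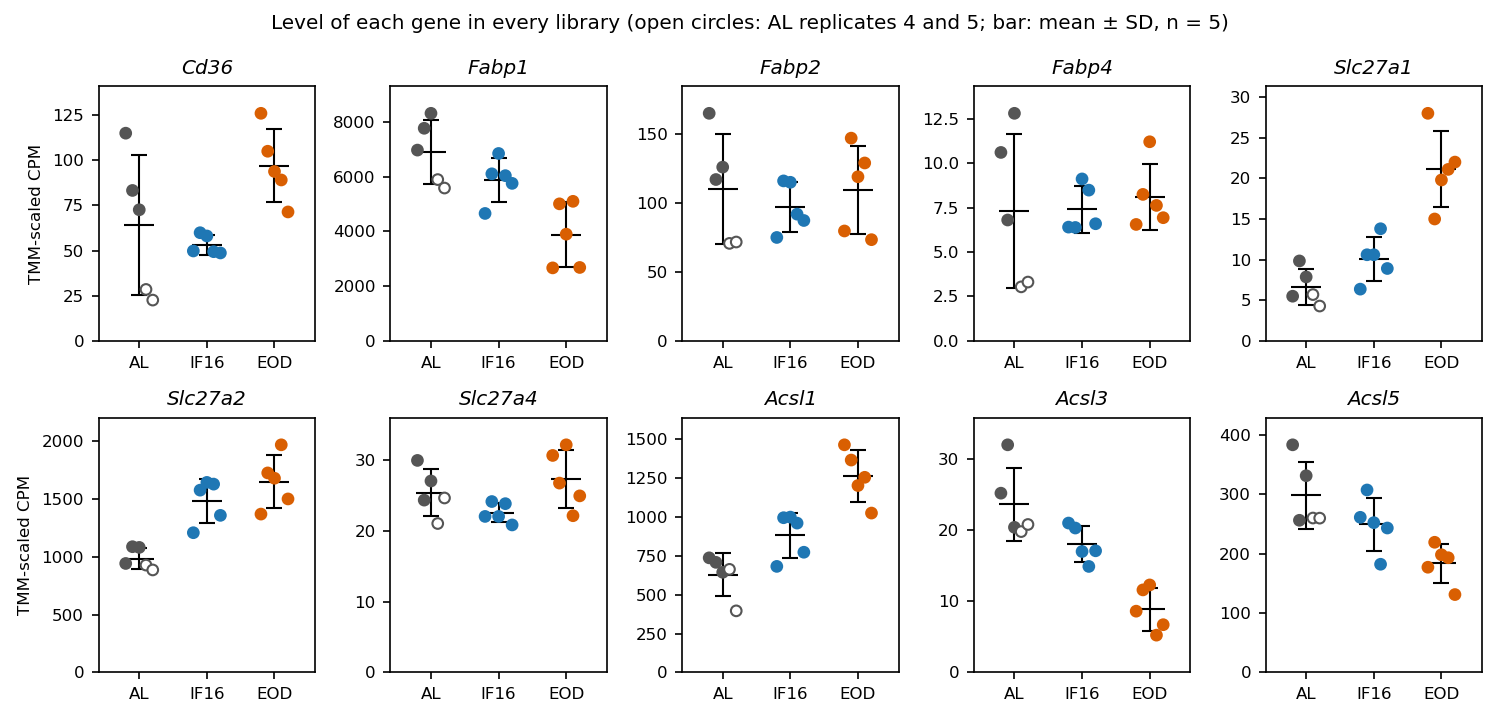
TMM-scaled CPM (vertical axes from 0) of the 10 genes in each library of AL, IF16 and EOD; each circle is a library, open circles are AL replicates 4 and 5, and the bars give the mean ± SD (n = 5). Slc27a1 and Acsl1 sit highest and Acsl3 lowest in EOD with no overlap with AL or IF16, and the 2 open circles are the lowest of AL for Cd36, where they stand at 28.5 and 22.6 CPM.

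Per length, the genes covered a wide range of levels. In AL, Fabp1 averaged 12567 FPKM (SD 2295, n = 5; counts scaled by gene length and library total). It ranked 10 of 22609 detected genes by this measure in AL and in IF16, and 11 in EOD. Slc27a2 followed at 339 FPKM (SD 36.4). Fabp2 (115 FPKM, SD 44.7), Acsl1 (113, SD 26.7) and Acsl5 (95.2, SD 20.4) came next in AL with overlapping ranges. Cd36 (18.4 FPKM, SD 11.5), Fabp4 (11.6, SD 6.95), Slc27a4 (6.29, SD 0.961) and Acsl3 (6.04, SD 1.47) also overlapped, and Slc27a1 was lowest at 2.39 FPKM (SD 0.828), its 5 libraries below every AL library of the other 9 genes. The order differed in EOD: Acsl1 (223 FPKM, SD 28.4) stood above Fabp2 (112, SD 29.4) and Fabp2 above Acsl5 (57.8, SD 8.62) with no overlap between neighbours. Acsl3, at 2.23 FPKM (SD 0.713), took the last place from Slc27a1, which averaged 7.59 FPKM (SD 1.84) and overlapped Slc27a4 at 6.71 (SD 0.972). In IF16 the means ran from 10575 FPKM for Fabp1 (SD 1049) through 505 for Slc27a2 (SD 48.3) and 156 for Acsl1 (SD 20.7) to 3.56 for Slc27a1 (SD 0.886).

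Slc27a1 showed the largest change of the 10 genes between EOD and AL. It encodes a fatty acid transport protein best known from muscle and adipose tissue, and its gene lies on chromosome 8 (71568927 to 71586708, mm10, plus strand). Its level in the AL libraries 1 to 5 was 5.5, 9.84, 7.87, 5.7 and 4.29 CPM. In IF16 it was 6.37, 10.6, 10.6, 13.8 and 8.91 CPM, and in EOD 28, 15, 19.8, 21.1 and 22 CPM. Every EOD library stood above every AL and IF16 library, while IF16 and AL overlapped. Slc27a1 rose 3.19-fold in EOD over AL (log2 fold change 1.67, SE 0.23, adjusted p = 5.47e-05) and 1.08 on the log2 scale over IF16 (SE 0.22, adjusted p = 0.00432). The difference between IF16 and AL was 0.60 (SE 0.23, adjusted p = 0.162).

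Slc27a2, a very-long-chain acyl-CoA synthetase and transport protein of liver and kidney (chromosome 2, 126552407 to 126588243, plus strand), was higher in both fasting groups. The AL libraries measured 942, 1087, 1081, 928 and 886 CPM. Those of IF16 measured 1208, 1576, 1643, 1628 and 1358 CPM, and those of EOD 1369, 1725, 1679, 1968 and 1500.0 CPM. All 10 fasting libraries were above all 5 AL libraries, and the fasting groups overlapped each other. Slc27a2 rose 1.51-fold in IF16 (log2 fold change 0.59, SE 0.12, adjusted p = 0.0101) and 1.67-fold in EOD (0.74, SE 0.12, adjusted p = 0.00018). EOD and IF16 differed by 0.15 (SE 0.12, adjusted p = 0.406), which did not pass. Without AL replicates 4 and 5 the IF16 difference was 0.52 and no longer passed (adjusted p = 0.0579), while the EOD difference was 0.70 (adjusted p = 0.00188). An opposite-strand long noncoding gene overlapping Slc27a2, Gm26697, had at most 0.0508% of its count.

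Slc27a4, a transport protein found widely and in the intestine, ranged from 21 to 29.9 CPM in AL, 20.8 to 24.1 in IF16 and 22.1 to 32.1 in EOD. The groups overlapped, and no comparison passed (log2 fold changes -0.17, 0.11 and 0.27 for IF16 against AL, EOD against AL and EOD against IF16, SE 0.11 each, adjusted p = 0.463, 0.492 and 0.105). The last difference passed without EOD replicate 4 (0.35, adjusted p = 0.0416) or without EOD replicate 5 (0.33, adjusted p = 0.0461).

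Cd36, a scavenger receptor that helps fatty acids across the membrane (chromosome 5), varied most within AL. Its level in AL replicates 1 to 5 was 115, 83.3, 72.6, 28.5 and 22.6 CPM. The IF16 libraries lay close together at 49.8, 59.9, 58.1, 49.4 and 48.7 CPM, and those of EOD at 126, 105, 93.8, 89.1 and 71.4 CPM. Every EOD library was above every IF16 library, whereas the AL libraries spanned both groups: replicates 1 to 3 lay above all of IF16, and replicates 4 and 5 below all of it. The coefficient of variation was 60.2% in AL, 10.1% in IF16 and 20.8% in EOD. No comparison passed in the fit of all 15 libraries: -0.28 for IF16 against AL (SE 0.35, adjusted p = 0.732), 0.59 for EOD against AL (adjusted p = 0.201) and 0.87 for EOD against IF16 (adjusted p = 0.103).

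The Cd36 calls depended on which AL libraries shared the fit. Without AL replicates 4 and 5, Cd36 was 0.76 lower on the log2 scale in IF16 than in AL (log2 fold change -0.76, adjusted p = 0.0258), EOD and AL differed by 0.13 (adjusted p = 0.596), and EOD exceeded IF16 by 0.89 (adjusted p = 0.00128). EOD against IF16 also passed when these groups were fitted alone (0.88, adjusted p = 0.00112), without AL replicate 5 (0.88, adjusted p = 0.0347) and with the DESeq2 Wald test (0.87, adjusted p = 0.0316). Without AL replicate 1, the IF16 difference from AL was 0.04 (adjusted p = 0.969) and EOD was higher than AL (0.93, adjusted p = 0.0387).

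**Figure D2:**
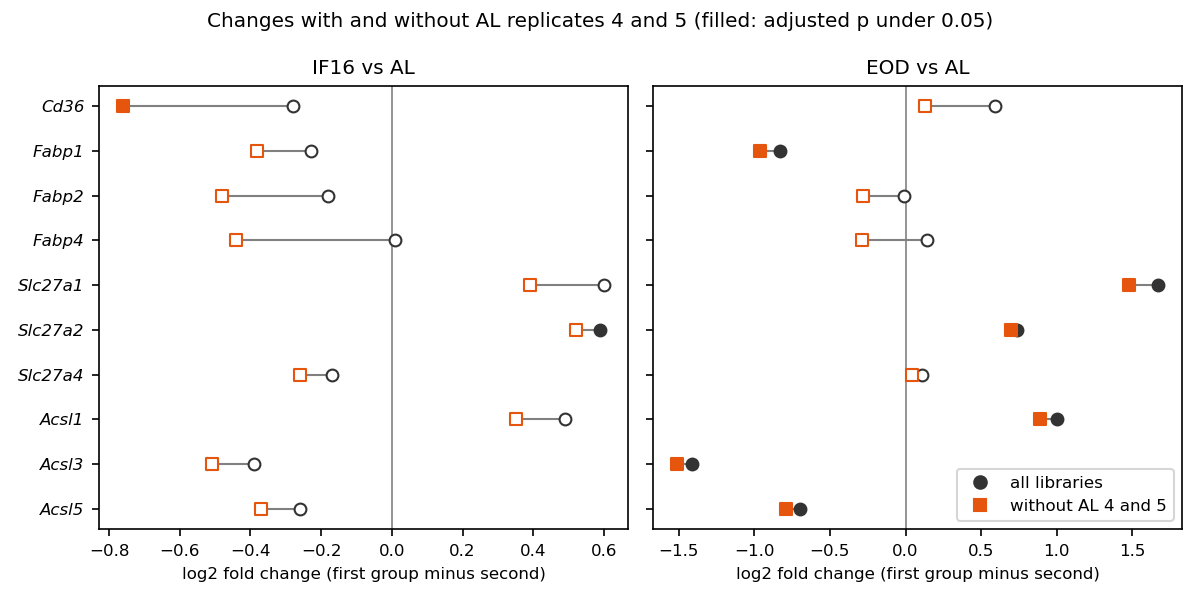
Log2 fold changes of the 10 genes (horizontal axes; left panel IF16 minus AL, right panel EOD minus AL) with all libraries (circles) and without AL replicates 4 and 5 (squares); filled symbols have an adjusted p under 0.05. Cd36 moves most in IF16 against AL, from -0.28 to -0.76, while the 6 genes called in EOD against AL are filled in both fits.

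Fabp1, the abundant fatty acid binding protein of the liver cytosol (chromosome 6, 71199827 to 71205023, plus strand), fell under EOD. The AL libraries measured 6973, 7770.4, 8317, 5896 and 5586 CPM and the IF16 libraries 4658, 6106, 6849.7, 6039 and 5757 CPM. The EOD libraries measured 2669, 5009, 3901, 5101 and 2684 CPM. All EOD libraries were below all AL libraries, and EOD overlapped IF16 through replicates 2 and 4. Fabp1 fell 1.78-fold in EOD against AL (log2 fold change -0.83, SE 0.18, adjusted p = 0.0022) and by 0.60 on the log2 scale against IF16 (SE 0.18, adjusted p = 0.033). The difference between IF16 and AL was -0.23 (SE 0.18, adjusted p = 0.541). The call against IF16 was lost without any 1 of IF16 replicates 2, 3, 4 and 5 or EOD replicates 1, 3 and 5 (log2 fold changes -0.47 to -0.61, adjusted p = 0.0613 to 0.0891).

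Fabp2, the binding protein named for the intestine, and Fabp4, known from adipocytes, macrophages and endothelium, did not pass in any comparison. Fabp2 was at 165, 117, 126, 70.7 and 71.7 CPM in AL, at 75 to 116 CPM in IF16 and at 73.4 to 147 CPM in EOD, with log2 fold changes of -0.18, -0.01 and 0.17 (SE 0.24 each, adjusted p = 0.749, 0.986 and 0.666). The summed level of 7 enterocyte markers was at most 0.427 CPM in any library. Of these, Sis and Cdx1 had 0 counts throughout, while other markers of the list had some counts. Fabp4 was at 10.6, 6.8, 12.8, 3.04 and 3.31 CPM in AL, at 6.38 to 9.11 CPM in IF16 and at 6.55 to 11.2 CPM in EOD, with log2 fold changes of 0.01, 0.14 and 0.13 (SE 0.33 or less, adjusted p = 0.99, 0.76 and 0.82).

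AL replicates 4 and 5 were again the lowest of their group for Fabp2 and Fabp4, and also for Fabp1 and Slc27a2. Without them Fabp2 was at -0.48 in IF16 and -0.28 in EOD against AL (adjusted p = 0.274 and 0.343), neither past the threshold. Fabp4 was then at -0.44 in IF16 and -0.29 in EOD against AL, which did not pass either (adjusted p = 0.302 and 0.317). The summed markers of other cells also differed between these libraries and the rest of AL. Summed over 7 adipocyte genes, the level was 18.3, 16.4 and 12.5 CPM in AL replicates 1 to 3. In AL replicates 4 and 5 it was 1.18 and 1.15 CPM, with 0.46 to 1.92 CPM in IF16 and 0.634 to 1.99 CPM in EOD. Most of the sum in AL replicates 1 to 3 came from Cfd (8.64, 7.49 and 7.31 CPM) and Cidea (7.01, 8.36 and 0.228 CPM). Lep had counts in AL replicates 1 and 3 only, at 0.687 and 0.685 CPM, and Adipoq reached 2.35 CPM at most. In AL replicate 2, Adipoq, Plin1 and Lep all had 0 counts. Summed over 10 endothelial genes, the level was 103 to 129 CPM in AL replicates 1 to 3, 77.1 and 73.4 CPM in replicates 4 and 5, 153 to 175 CPM in IF16 and 158 to 187 CPM in EOD. Of the 9 endothelial genes tested, 8 rose in EOD and 4 in IF16 against AL, or 2 in IF16 without AL replicates 4 and 5. Summed over 6 stellate cell genes, it was 159, 127 and 176 CPM in AL replicates 1 to 3, 104 and 102 CPM in replicates 4 and 5, 129 to 172 CPM in IF16 and 167 to 248 CPM in EOD, where 2 of the 6 genes rose and 1 fell against AL. The 8 Kupffer cell and macrophage genes went the other way within AL, with 159, 133 and 85.8 CPM in replicates 1 to 3 and 189.8 and 219 CPM in replicates 4 and 5, and ranged from 115 to 346 CPM in IF16 and from 122 to 295 CPM in EOD. The part of these cells in the levels of Cd36, Fabp2 and Fabp4 was not tested.

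Acsl1, the main long-chain acyl-CoA synthetase of liver, which serves both oxidation and triglyceride synthesis, rose under EOD (chromosome 8, 46471041 to 46536051, plus strand). In AL it measured 737, 708, 644, 663 and 396 CPM, in IF16 682, 995, 999, 960.4 and 773 CPM, and in EOD 1464, 1366, 1202, 1255 and 1025 CPM. Every EOD library was above every library of the other groups, and IF16 overlapped AL through its first library. Acsl1 rose 2.01-fold in EOD against AL (adjusted p = 0.000163, SE 0.16 on the log2 scale) and by 0.52 on the log2 scale against IF16 (SE 0.16, adjusted p = 0.0334). The difference between IF16 and AL was 0.49 (SE 0.16, adjusted p = 0.0999). The call against IF16 was lost with any 1 of IF16 replicates 1 and 5 and EOD replicates 1 and 2 left out (log2 fold changes 0.46 to 0.49, adjusted p = 0.065 to 0.0876) and with limma on log2(FPKM + 1) and no minimum level (0.52, adjusted p = 0.0749).

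Acsl3, a synthetase of the endoplasmic reticulum and lipid droplets (chromosome 1, 78657825 to 78707743, plus strand), fell most of the 10 genes. It stood at 25.2, 32, 20.4, 19.8 and 20.8 CPM in AL, at 21, 20.3, 17, 14.9 and 17.1 CPM in IF16 and at 8.61, 11.6, 12.3, 5.24 and 6.71 CPM in EOD. The EOD libraries all lay below both other groups, which overlapped. Acsl3 fell 2.66-fold in EOD against AL (log2 fold change -1.41, SE 0.20, adjusted p = 7.93e-05) and by 1.02 on the log2 scale against IF16 (SE 0.20, adjusted p = 0.00304); IF16 against AL was at -0.39 (SE 0.20, adjusted p = 0.305). A protein-coding gene on the same strand, Utp14b (chromosome 1, 78658038 to 78671512), shares 244 exon bases with Acsl3, or 5.6% of its exon bases in the reference annotation, and its count reached 28.2% of that of Acsl3. Utp14b itself fell by 1.38 on the log2 scale in EOD against AL (adjusted p = 7.63e-05), and reads of the shared bases cannot be assigned to either gene from these counts.

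Acsl5, a synthetase of the endoplasmic reticulum and outer mitochondrial membrane (chromosome 19, 55253369 to 55296627, plus strand), also fell under EOD. Its levels were 383, 256, 331, 259.8 and 259.6 CPM in AL, 261, 307, 252, 182 and 243 CPM in IF16 and 177, 219, 198, 193 and 131 CPM in EOD. EOD lay below all AL libraries and overlapped IF16 through IF16 replicate 4. Acsl5 fell 1.62-fold in EOD against AL (log2 fold change -0.70, SE 0.16, adjusted p = 0.00264). The difference from IF16 was -0.44 (SE 0.16, adjusted p = 0.0657), and it passed without IF16 replicate 4 (-0.52, adjusted p = 0.0337) and with the DESeq2 Wald test (-0.43, adjusted p = 0.0499). IF16 against AL was at -0.26 (SE 0.16, adjusted p = 0.407).

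**Figure D3:**
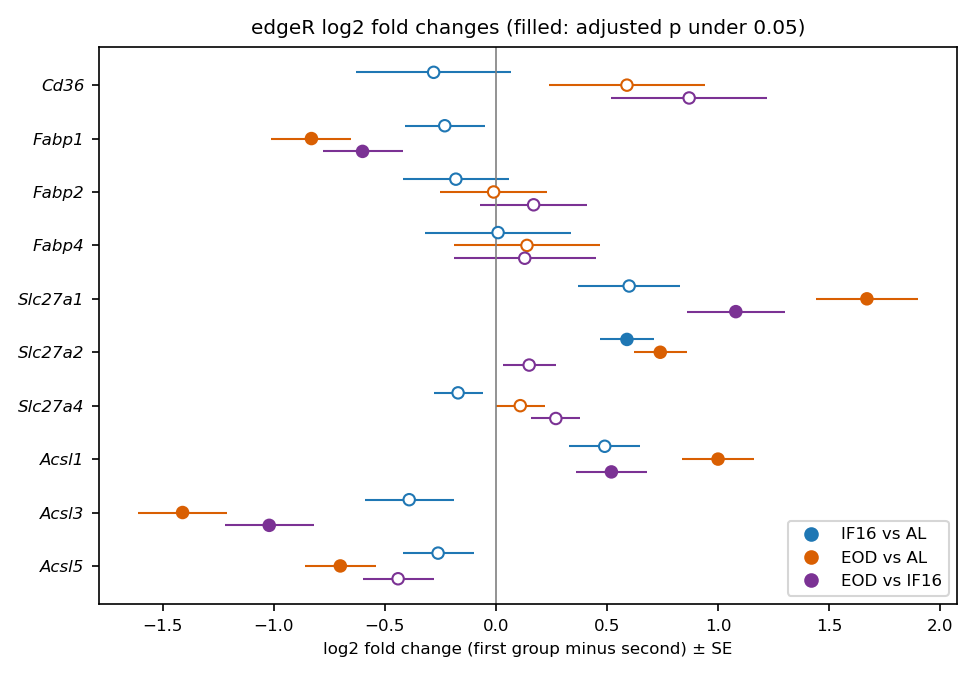
Log2 fold changes ± SE (horizontal axis) of the 10 genes in IF16 against AL, EOD against AL and EOD against IF16 from the edgeR fit of 15 libraries; filled circles have an adjusted p under 0.05. Slc27a1 lies farthest to the right at 1.67 and Acsl3 farthest to the left at -1.41, both in EOD against AL, while the intervals of Fabp2 and Fabp4 touch 0 in all 3 comparisons.

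The make-up of the synthetase family differed between groups. The share of each gene in the summed FPKM of its family was taken within each library, where scaling between libraries cancels, and compared by two-sided exact permutation tests with adjustment over 27 tests; 5 libraries against 5 allow no p below 0.00794. Acsl1 made up 49.3%, 57%, 49.6%, 53.1% and 42.5% of the sum over Acsl1, Acsl3, Acsl4, Acsl5 and Acsl6 in AL. In IF16 it made up 56.2%, 61.9%, 66.2%, 72.3% and 61%, and in EOD 80.4%, 76.1%, 74.9%, 76.6% and 79.7%. The EOD libraries did not overlap the others, and IF16 overlapped AL through its first library. The mean Acsl1 share rose from 50.3% to 63.5% and 77.5% over AL, IF16 and EOD (SD 5.37, 6.05 and 2.41, n = 5 each; exact permutation tests, adjusted p = 0.0268 for IF16 and 0.0153 for EOD against AL, and 0.0153 for EOD against IF16).

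Acsl5 took the opposite course, from a mean of 43.1% in AL through 32.2% in IF16 to 20.1% in EOD (SD 5.76, 5.31 and 2.16), and Acsl3 went from 2.76% to 1.88% and 0.777% (SD 0.645, 0.356 and 0.242). Both shares fell in all 3 comparisons (exact permutation tests, adjusted p = 0.0357 and 0.0451 for IF16 against AL, and 0.0153 in the other 4). The family sum was 222, 245 and 288 FPKM in AL, IF16 and EOD (SD 41.6, 23.5 and 33.9). Without AL replicates 4 and 5 the IF16 differences in share were of similar size but no longer passed, at 11.5 points for Acsl1 (13.2 with all libraries, adjusted p = 0.102), -0.897 for Acsl3 (-0.877, adjusted p = 0.0964) and -10.6 for Acsl5 (-10.9, adjusted p = 0.102) by exact permutation, where 3 libraries against 5 allow no p below 0.0179. The calls of Acsl3 and Acsl5 were also lost without AL replicate 5 or any 1 of IF16 replicates 2 to 5, and the call of Acsl3 without AL replicate 2 (adjusted p = 0.0504 to 0.102). The share of Acsl4 ranged from 2.37% to 7.4% in AL, and the Acsl3 share carries the overlap with Utp14b given above.

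**Figure D4:**
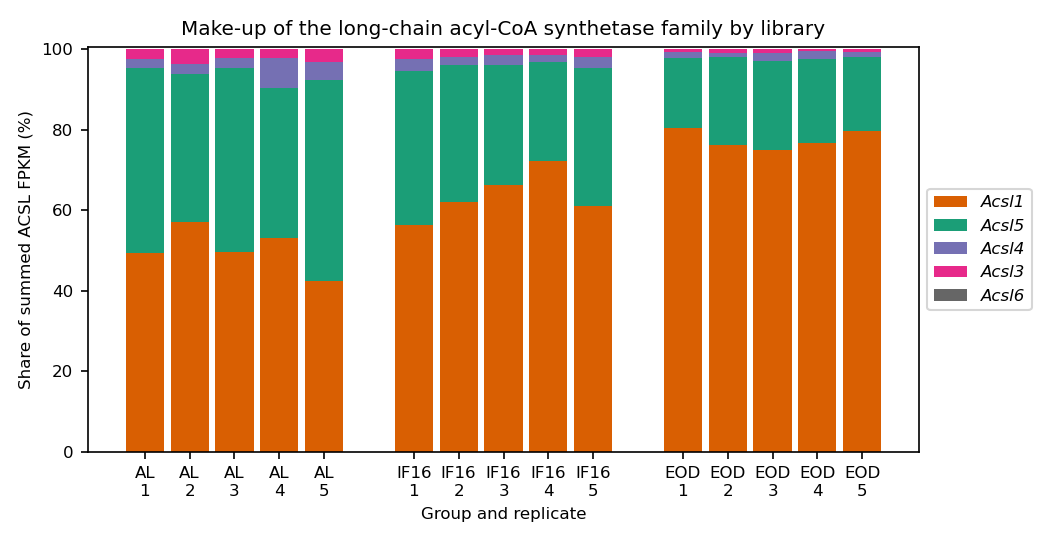
Share of each long-chain acyl-CoA synthetase in the summed FPKM of the family (vertical axis, percent) in each of the 15 libraries, 1 bar per library. The Acsl1 segment covers 42.5% to 57% in AL, 56.2% to 72.3% in IF16 and 74.9% to 80.4% in EOD, and the Acsl5 segment shrinks accordingly.

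Within the binding proteins, Fabp1 held nearly all of the summed FPKM of Fabp1 to Fabp7, with 98.9% in AL and IF16 and 98.1% in EOD. Its share was lower in EOD, by a difference of -0.78 points from AL and -0.767 points from IF16, with no overlap (exact permutation tests, adjusted p = 0.0153 for both). The share of Fabp2 rose from 0.891% in AL (SD 0.259) and 0.933% in IF16 (SD 0.0895) to 1.6% in EOD (SD 0.117) (exact permutation tests, adjusted p = 0.0153 for both). The share of Fabp4 was 0.0866%, 0.108% and 0.188% in AL, IF16 and EOD, and its 2 EOD differences passed (adjusted p = 0.0357 and 0.0153 by exact permutation). That against AL was lost without any 1 of AL replicates 2, 4 and 5 and EOD replicates 1, 3 and 5 (adjusted p up to 0.0789) and without AL replicates 4 and 5 together (0.0756 points in place of 0.102, adjusted p = 0.102), and that against IF16 without any 1 of IF16 replicates 2 to 5 (adjusted p up to 0.0714). The family sum was 12711, 10698 and 7063 FPKM in AL, IF16 and EOD (SD 2320.1, 1061 and 1966), so a share of it can grow in EOD while the level of the gene itself does not differ, as for Fabp2. As a share of raw counts, Fabp1 did not pass between EOD and AL (-0.835 points, exact permutation, adjusted p = 0.0677).

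Within the transport proteins, Slc27a2 and Slc27a5, a bile acid-CoA ligase of liver, held most of the summed FPKM of Slc27a1 to Slc27a6. The share of Slc27a2 was 53.9%, 58.1% and 57.7% in AL, IF16 and EOD (SD 2.86, 2.74 and 3.73), and no comparison passed (exact permutation tests, adjusted p = 0.075, 0.153 and 0.874). It passed for IF16 without AL replicate 2 (adjusted p = 0.0476) or IF16 replicate 1 (0.0429), and for EOD against AL without EOD replicate 1 (0.0451), all by exact permutation. Slc27a4 fell from 1% in AL to 0.641% and 0.696% in the fasting groups (SD 0.122, 0.047 and 0.131; IF16 before EOD) (adjusted p = 0.0153 for both, exact permutation), without overlap, although its own level did not pass in either comparison. Slc27a1 rose from 0.377% (SD 0.112) in AL and 0.408% (SD 0.0864) in IF16 to 0.789% (SD 0.228) in EOD (exact permutation, adjusted p = 0.0268 and 0.0153). Without AL replicates 4 and 5 its difference between EOD and AL was 0.36 points, in place of 0.412, and did not pass (exact permutation, adjusted p = 0.102). The sum over the family was 628, 868 and 972 FPKM in AL, IF16 and EOD (SD 39.4, 44.7 and 63.6).

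Of the 9 shares, 4 passed between IF16 and AL, 8 between EOD and AL and 7 between EOD and IF16. Without AL replicates 4 and 5 the counts were 1, 6 and 7. Shares of a family add up to a fixed total, so a rise in 1 share lowers the sum of the others. These counts are therefore not counts of independent results. By their own levels, none of Acsl1, Acsl3 and Acsl5 passed in IF16 against AL in the fit of all 15 libraries.

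Other genes of the same families, from a list of 11, were tested for 5. Between EOD and AL, 2 rose and 2 fell. Slc27a5 was at 596 to 661 CPM in AL and 739.5 to 1020.0 CPM in EOD, with no overlap (log2 fold change 0.52, SE 0.09, adjusted p = 0.000465). Fabp7, a binding protein best known from brain, rose by 1.35 on the log2 scale (SE 0.22, adjusted p = 0.000184) and by 1.02 against IF16 (adjusted p = 0.0041). Fabp5, the epidermal binding protein, was at 8.9, 22.2, 13.7, 68.8 and 126 CPM in AL and at 2.82 to 8.35 CPM in EOD (log2 fold change -2.93, SE 0.69, adjusted p = 0.0057), with the highest values in AL replicates 4 and 5; without those 2 libraries it was at -1.23 (adjusted p = 0.0419). Acsl4, a synthetase that prefers arachidonic acid, was at -0.86 (adjusted p = 0.0287), with 86.6 CPM in AL replicate 4 against 27.7 to 38.4 CPM in the other AL libraries. It was at -0.44 without that library (adjusted p = 0.0639) and at -0.32 without AL replicates 4 and 5 (adjusted p = 0.214), and its call was also lost without EOD replicate 2 or 5 (adjusted p = 0.0658 and 0.0726). In IF16 against AL only Slc27a5 passed (0.35, adjusted p = 0.0457), and this call was lost in 14 of the 15 fits that left out 1 library (adjusted p up to 0.129), the exception being EOD replicate 5, and without AL replicates 4 and 5 (0.36, adjusted p = 0.114).

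Of 15 other genes of uptake, lipolysis and acyl-CoA binding, 6 rose and 5 fell between EOD and AL, with a median log2 fold change of -0.17. Angptl4, an inhibitor of lipoprotein lipase, rose 2.63-fold (adjusted p = 0.000692, SE 0.25 on the log2 scale), and Gpihbp1, which anchors that lipase to the capillary wall, rose 2.06-fold (adjusted p = 0.00038, SE 0.18). The latter is an endothelial gene, and the endothelial markers rose, as given above, but their part in its rise was not tested. Of the caveolin genes in this list, Cav1 fell, at -1.32 to -0.75 with single libraries omitted. Its call ended once AL replicate 3 was omitted (adjusted p = 0.0519). Cav2 rose, at 0.42 to 0.66, but 4 of these 15 fits gave no call. Omitting both AL replicates 4 and 5 ended the Cav2 call too (0.45, adjusted p = 0.0919). Lpl, which encodes lipoprotein lipase itself, also rose, by 0.46 to 0.69 on the log2 scale with 1 library left out. Its call was lost without any 1 of AL replicates 2 and 3 and EOD replicates 1 and 4 (adjusted p up to 0.0777). Angptl8, another angiopoietin-like gene, fell, at -1.93 to -1.07 with 1 library left out, and kept its call in each of those fits. Lipa, the lysosomal acid lipase, rose 1.98-fold (SE 0.19, adjusted p = 0.000895). Dbi, which binds acyl-CoA, fell by 0.56 on the log2 scale (SE 0.15, adjusted p = 0.00861), and Got2, a mitochondrial transaminase also described as a fatty acid binding protein of the membrane, fell by 0.40 (SE 0.10, adjusted p = 0.00417). Between IF16 and AL, Gpihbp1 and Angptl4 rose and Angptl8, which acts with other angiopoietin-like proteins on that lipase, fell, and between EOD and IF16 only Got2 passed (-0.36, adjusted p = 0.0165), a call lost without IF16 replicate 4 (-0.31, adjusted p = 0.0506). The IF16 call of Angptl4 was lost without AL replicate 2 or any 1 of IF16 replicates 2 to 5 (adjusted p up to 0.0739), and that of Angptl8 with IF16 replicate 3 or 5 left out (adjusted p = 0.0528 and 0.0513).

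The synthetases of short and medium chains moved mostly down under EOD: of 9 tested, 5 fell and 1 rose against AL, with a median of -0.50. Acss2, which makes acetyl-CoA from acetate, fell 5.02-fold (log2 fold change -2.33, SE 0.21, adjusted p = 1.29e-06), from 123 to 243 CPM in AL to 32.8 to 37.5 CPM in EOD. Acsm1 and Acsm5, medium-chain synthetases of the mitochondrion, fell by 0.53 (SE 0.11, adjusted p = 0.00134) and 0.50 (SE 0.10, adjusted p = 0.000763) on the log2 scale. Acsm3, of the same family, rose 2.09-fold (SE of log2 0.28, adjusted p = 0.00807). Between EOD and IF16, 3 of the 9 fell (Acss2, Acsm1 and Acsm5), and Acsm3 was higher (0.96, adjusted p = 0.028), a call lost without any 1 of IF16 replicates 3 to 5 and EOD replicates 1 to 3 (adjusted p up to 0.0762). For IF16 against AL the edgeR test called 0 of the 9, with 2 lower at an unadjusted p under 0.05, and DESeq2 and limma also called 0, while 1 of the 9 was called lower without AL replicates 4 and 5.

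Of 13 regulators, 2 rose and 3 fell in EOD against AL. Ppara, the fasting receptor itself, rose 1.89-fold (log2 fold change 0.92, SE 0.11, adjusted p = 1.93e-05). It was at 28.5, 30.7, 24.2, 18.4 and 23.1 CPM in AL and at 42.4 to 50.4 CPM in EOD, with no overlap. Creb3l3, a liver transcription factor of the endoplasmic reticulum, rose by 0.44 (SE 0.08, adjusted p = 0.000585), and 3 regulators fell: Srebf1, a driver of lipid synthesis (-3.48, SE 0.37, adjusted p = 1.30e-05), its relative Srebf2 (-0.76, adjusted p = 0.000164) and Pparg (-0.86, adjusted p = 0.0182). The Pparg call was lost without AL replicate 1 or 2 (adjusted p = 0.0602 and 0.0518). Against IF16, Ppara (0.42, adjusted p = 0.0178) and Creb3l3 (0.27, adjusted p = 0.0318) were higher in EOD and Srebf1 lower (-2.14, adjusted p = 0.00124); the Creb3l3 call was lost without any 1 of IF16 replicates 1, 4 and 5 and EOD replicates 1, 2 and 4 (adjusted p up to 0.0836). IF16 was above AL for Ppara (0.49, adjusted p = 0.0222) and below it for Srebf2 (-0.57, adjusted p = 0.0139). Leaving out AL replicates 4 and 5 ended both of these calls (0.34 and -0.49, adjusted p = 0.109 and 0.0743), and that of Ppara also ended without any 1 of AL replicates 3 and 5 and IF16 replicates 2, 3 and 5 (adjusted p up to 0.0691). Srebf1 was also lower (-1.34, adjusted p = 0.0441), but not past the threshold without any 1 of AL replicates 1 to 3, IF16 replicates 2 to 5 and EOD replicates 1 and 2 (adjusted p up to 0.115).

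Of 16 PPARA target genes outside the 10, 14 rose in EOD against AL and 2 did not pass, with a median log2 fold change of 0.98 beside 0.13 for the 10 genes of uptake, binding and activation. Acot1, an acyl-CoA thioesterase, was at 5.6 to 16.1 CPM in AL and 108 to 262 CPM in EOD (17.6-fold, SE of log2 0.35, adjusted p = 1.84e-06). Ehhadh, of peroxisomal oxidation, rose 4.69-fold (SE 0.26, adjusted p = 1.49e-05), Acadm, the medium-chain acyl-CoA dehydrogenase, 2.07-fold (SE 0.13, adjusted p = 1.81e-05) and Slc25a20, the carnitine carrier, 1.81-fold (SE 0.13, adjusted p = 8.13e-05). Between EOD and IF16, 10 of the 16 rose, with a median of 0.78. Among these, the call of Cyp4a14 was lost in 10 of the 15 fits that left out 1 library (adjusted p up to 0.0962). That of Pdk4 was lost in 8 of them (adjusted p up to 0.0913) and that of Cpt2 without IF16 replicate 5 (adjusted p = 0.0644). Between IF16 and AL, 2 rose with a median of 0.36: Acot1 (3.71-fold, adjusted p = 0.00561) and Acadl, a long-chain dehydrogenase (0.43, adjusted p = 0.0368). At an unadjusted edgeR p under 0.05, 11 of the 16 were higher in IF16 than in AL and 0 lower. The Acadl call was lost without any 1 of AL replicates 2 to 5 and IF16 replicates 2 to 4 (adjusted p up to 0.119) and without AL replicates 4 and 5 together (0.35, adjusted p = 0.163). These lists were chosen with results of these data known, and their counts are a description.

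**Figure D5:**
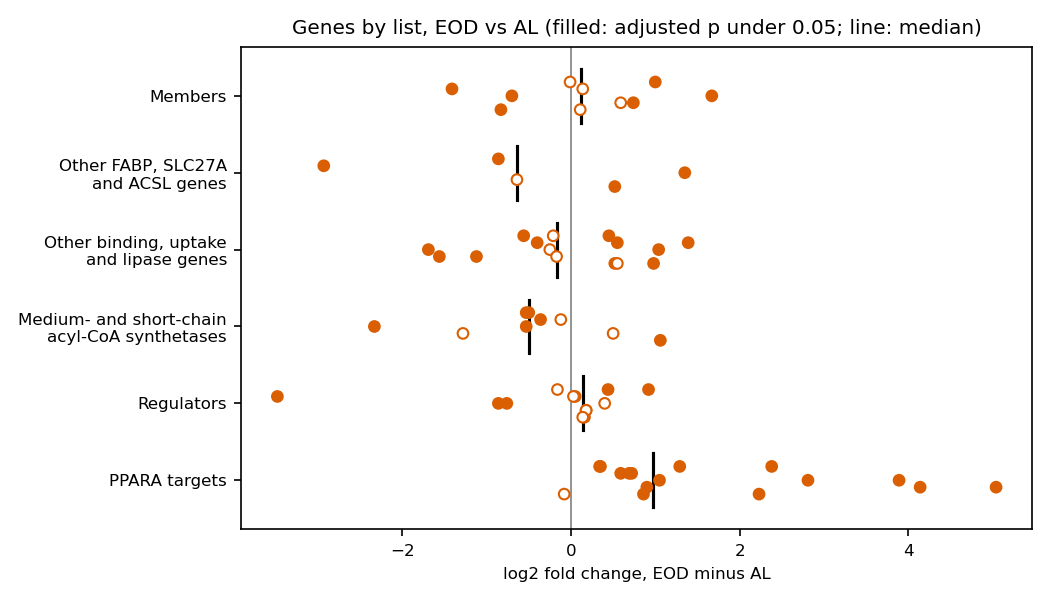
Log2 fold changes in EOD minus AL (horizontal axis) of the 10 genes (top row, "Members") and of the genes of 5 lists; each circle is a gene, filled where the adjusted p is under 0.05, and the black line is the median. The 10 genes spread from -1.41 to 1.67 around a median of 0.13, and the PPARA targets lie to the right around 0.98 with the highest at 5.04.

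For the gene with the smallest p in each comparison, the genes with the most similar pattern were found by the root mean square difference of gene-centred log2 CPM over the 15 libraries. For Slc27a2 these were Smim4 (0.13), Acadl (0.14) and Zfand6 (0.14), where the median over 12730 protein-coding genes was 0.47. For Slc27a1 they were Slc22a5, the carnitine transporter (0.32), Grpel2 (0.33) and Arl4a (0.33), with a median of 0.84. For Acsl3 they were Impg2 (0.24), Utp14b (0.28) and Fnip2 (0.28), with a median of 0.76, and Utp14b is the gene that shares exon bases with Acsl3. These libraries also share the group differences, so the measure describes a likeness only.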

How the data were processed

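Counts per gene and library were deposited by the authors as raw whole numbers, with FPKM values that equal the count scaled by gene length and library total (100% of cells at a tolerance of 1e-08). Per the submitters' processing notes, the tools were STAR 2.5, HTSeq 0.6.1 and DESeq2 and the build was mm10, with no role or order stated. No source used here says whether counting used strand or how reads of overlapping genes were counted, so the counts of such genes are uncertain.

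The counts were tested in R 4.3.3 with edgeR 4.0.16: filterByExpr at a minimum count of 10 (13837 genes left), TMM scaling, 1 fit of all 15 libraries with a mean per group, and the robust quasi-likelihood test. Adjusted p-values are from this test with Benjamini-Hochberg adjustment over all tested genes, at a threshold of 0.05, unless an exact permutation test is named. CPM are TMM-scaled, and each SE was derived from the F statistic of the fold change. Shares of a family used FPKM. The fit was tested on simulated data.

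Alternatives were DESeq2 1.42.0 size factors and its Wald test, library totals without TMM, no filter or 1 CPM in 5 libraries, the compared groups alone, a replicate block, leaving out each library, AL replicates 4 and 5 left out, limma 3.58.1 on log2(FPKM + 1) or log2(FPKM + 0.1) with a minimum mean of 0.5 or none, and shares of raw counts. Counts for the gene lists under these alternatives were added after seeing the data. The 10 genes and the lists were chosen with earlier results of these data known. All 10 genes are named, list genes only where past the threshold, and the 3 most alike genes of the gene with the smallest p in each comparison. Library totals of 28129883 counts or more put a floor of 3 counts well under the levels of the 10 genes. Several adipocyte and enterocyte markers had 0 counts in a library, so their low sums rest on few counts. Pairs of libraries within a group differed beyond counting noise. No library was left out of the tests named as such. The values of 1 gene of the lists are not reported here.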

Additional observations from a re-analysis of the deposited data

Results flagged for a closer look

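Of 30 groups of 5 libraries (10 genes in 3 groups), 1 held a library far from the others, where chance gives about 1 in 20. Acsl1 in AL replicate 5 was at 396 CPM, and the other AL libraries lay between 644 and 737 CPM, so that the gap took 0.727 of the range. This library is one of the pair with high acute phase transcripts, and the part of that state in the Acsl1 level was not tested. With AL replicates 4 and 5 both left out, Acsl1 was still higher in EOD than in AL, by 0.89 on the log2 scale (adjusted p = 0.000575).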

How the results depend on the processing

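The EOD against AL calls of the 6 genes held under every alternative run, and no scaling moved the median of all genes by over 0.1. Between IF16 and AL, 2 genes rose with the replicate block (Acsl1 at 0.51, adjusted p = 0.0485) in place of 1, and without AL replicates 4 and 5, 0 rose and 1 fell. Between EOD and IF16, limma on log2(FPKM + 1) without a minimum called 1 higher in place of 2, and single left-out libraries gave 1 to 3 higher and 1 to 2 lower. Shares past the threshold between IF16 and AL numbered 1 without AL replicates 4 and 5, and 2 to 5 with 1 library left out. The labels do not say whether replicate numbers pair the libraries. Correlations of same-numbered libraries ran from -0.14 to 0.28, and 1 of 5 correlated best with its own number in each comparison. Such correlations cannot decide whether the libraries were paired by design.

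Directions that turned all belonged to differences that did not pass. Without AL replicates 4 and 5, Fabp4 was at -0.44 in IF16 and -0.29 in EOD against AL, and shares in IF16 against AL were at 0.0326 points for Fabp1, -0.0831 for Fabp2, -0.00445 for Fabp4 and -0.021 for Slc27a1. Fabp4 in IF16 was at -0.01 without TMM, Fabp2 in EOD against AL at 0.01 with the 1 CPM filter and with the 3 limma settings, and the Fabp1 share in IF16 at 0.274 in raw counts. Over single left-out libraries, IF16 against AL ran from -0.5 to 0.04 for Cd36, -0.31 to 0.01 for Fabp2 and -0.18 to 0.3 for Fabp4, and EOD against AL from -0.13 to 0.21 for Fabp2 and -0.05 to 0.45 for Fabp4. Shares ran from -0.106 to 0.0345 (Fabp1), -0.0109 to 0.152 (Fabp2) and -0.00175 to 0.0736 (Slc27a1) in IF16 against AL, and from -1.45 to 0.936 (Slc27a2) in EOD against IF16. The cause of these changes was not tested.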
